A study of Homo sapiens with 6 samples.

Results

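Cadherins are calcium-dependent adhesion proteins, and the regions of open chromatin named for their genes are described here in an established human melanoma line, A375. They were chosen by a rule on gene names, set with earlier results of these data known. A region belongs to the set where the gene column of the authors' deposited tables gives CDH followed by digits, a name starting with PCDH, or FAT1 to FAT4, DCHS1 or DCHS2. This held for 2014 of 226920 regions and 96 of 19059 gene names. They are grouped into 6 subfamilies. The classical type I cadherins had 323 regions, the type II cadherins 674, the other CDH genes 233, the clustered protocadherins 77, the non-clustered protocadherins 514, and the FAT and DCHS genes 193. PCDH24, kept by the rule, is an older name of CDHR2. A gene name says which gene start a region was assigned to, at any distance, not that the region controls the gene.

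The assay was ATAC-seq, in which the transposase Tn5 cuts open DNA and tags it for sequencing. There were 3 groups of 2 libraries: untreated A375 cells (mock), A375 cells given recombinant HMGA1 protein for 2 h, and A375 cells given it for 18 h. HMGA1 is an architectural protein of chromatin with a preference for AT-rich DNA, and the study's title names its internalization. The protocol calls the libraries of a group biological replicates without saying that they came from separate cultures, so p-values measure only the spread between these libraries, which may be technical. The mock cells carry no label of a carrier protein or buffer.

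The tables used here give 3 comparisons fitted together by the authors with DESeq2, with 0 columns for single libraries. Each region has a mean signal over the 6 libraries (counts divided by size factors), a log2 fold change with its standard error (SE) and an adjusted p. All values below are from the authors' deposited tables unless said otherwise. Group levels were computed from a region's mean signal and its fold changes, so they carry no error of their own. Depth per library is unknown. A region was called where the deposited adjusted p was under 0.05, and it counted as tested where that p was under 1, since regions of low signal have 1 written there. All but 1 of the member regions span 501 bases, so their signals can be set side by side.

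Classical and type II cadherins join neighbouring cells by binding the same or a like cadherin on the next cell, and their tails hold catenins that reach the actin cytoskeleton. E-cadherin (CDH1) ties melanocytes to keratinocytes in the epidermis, and melanoma cells are known for a shift toward N-cadherin (CDH2). Clustered protocadherins lie in 3 gene arrays on chromosome 5, where each variable first exon has its own promoter, and they give neurons their cell-surface identities. FAT proteins are giant cadherins, and FAT4 binds its ligand DCHS1 in planar polarity and growth control.

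The promoter sequences of 2 sets of members are shown first, because the accessible starts described below differ in their sequence. They are from RefSeq on GRCh38.p14, each running from 250 bases before to 50 after a gene start. Capitals mark CGCT on either strand (AGCG on the strand printed), the letters at the core of the conserved sequence element known from clustered protocadherin promoters. CDH2 has both an upstream and a downstream start in that table, and the deposited tables measure distance from the downstream one.
CDH2 upstream start, chr18:28177081-28177380, minus strand: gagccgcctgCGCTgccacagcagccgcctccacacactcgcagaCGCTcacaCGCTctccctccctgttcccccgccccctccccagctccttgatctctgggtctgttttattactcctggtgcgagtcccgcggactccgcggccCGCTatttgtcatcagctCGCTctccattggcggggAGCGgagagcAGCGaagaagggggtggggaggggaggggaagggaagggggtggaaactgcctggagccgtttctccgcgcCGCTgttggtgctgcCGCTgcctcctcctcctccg
CDH2 downstream start, chr18:28036592-28036891, minus strand: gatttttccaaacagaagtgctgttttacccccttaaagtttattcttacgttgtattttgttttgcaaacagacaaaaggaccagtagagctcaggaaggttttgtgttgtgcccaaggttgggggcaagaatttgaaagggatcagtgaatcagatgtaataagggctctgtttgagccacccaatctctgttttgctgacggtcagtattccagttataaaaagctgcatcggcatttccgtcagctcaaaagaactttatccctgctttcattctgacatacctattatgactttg
PCDHAC1, chr5:140926049-140926348, plus strand: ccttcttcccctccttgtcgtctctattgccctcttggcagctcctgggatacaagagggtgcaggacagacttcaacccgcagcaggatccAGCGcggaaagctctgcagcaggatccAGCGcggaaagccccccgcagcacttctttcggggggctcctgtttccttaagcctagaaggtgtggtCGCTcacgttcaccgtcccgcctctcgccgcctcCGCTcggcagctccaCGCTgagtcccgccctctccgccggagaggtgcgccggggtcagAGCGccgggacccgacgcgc
PCDHGC3, chr5:141475716-141476015, plus strand: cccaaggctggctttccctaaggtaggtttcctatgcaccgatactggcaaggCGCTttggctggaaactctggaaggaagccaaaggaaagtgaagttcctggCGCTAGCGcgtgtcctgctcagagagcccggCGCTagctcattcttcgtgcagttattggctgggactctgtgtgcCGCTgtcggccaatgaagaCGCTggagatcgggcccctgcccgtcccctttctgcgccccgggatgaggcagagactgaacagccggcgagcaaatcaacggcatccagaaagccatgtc
PCDHA4, chr5:140806818-140807117, plus strand: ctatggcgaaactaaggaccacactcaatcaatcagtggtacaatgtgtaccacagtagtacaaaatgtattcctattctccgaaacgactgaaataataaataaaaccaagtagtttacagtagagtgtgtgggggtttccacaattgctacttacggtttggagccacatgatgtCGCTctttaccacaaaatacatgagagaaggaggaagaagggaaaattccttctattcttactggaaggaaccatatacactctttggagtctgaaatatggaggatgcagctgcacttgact
PCDHGA7, chr5:141382492-141382791, plus strand: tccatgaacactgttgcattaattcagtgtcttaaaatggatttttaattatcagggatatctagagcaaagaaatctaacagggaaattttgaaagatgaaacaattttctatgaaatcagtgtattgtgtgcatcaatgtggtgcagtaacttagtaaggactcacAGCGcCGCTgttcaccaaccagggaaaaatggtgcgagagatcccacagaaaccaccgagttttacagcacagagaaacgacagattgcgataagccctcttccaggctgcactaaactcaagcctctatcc
The upstream CDH2 promoter is 33.0% A+T and holds 9 matches to CGCT, and the downstream one is 59.3% A+T and holds 0.

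The gene starts themselves were open to very different degrees. A region lay within 1 kb of the deposited or the RefSeq start of a member gene in 101 cases, 88 of them by the deposited start (chromosome Y was left out). The highest mean signal there was 823 at PCDH9, a delta-protocadherin gene of the nervous system, followed by 634 at FAT4, 630 at PCDHGC3 and 614 at PCDH1, which encodes a protocadherin of airway epithelium. PCDHAC1 had 600, PCDHAC2 488, PCDH20 456, CDH15 (M-cadherin of muscle) 441 and PCDH10 427. For all 17086 regions within 1 kb of a deposited start in the series, the median was 254. CDH3 (P-cadherin) had 43.3 at its start, CDH4 (R-cadherin) 43.2 and DCHS1 40.6, all under the lowest signal tested in 2 h against mock.

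**Figure D1:**
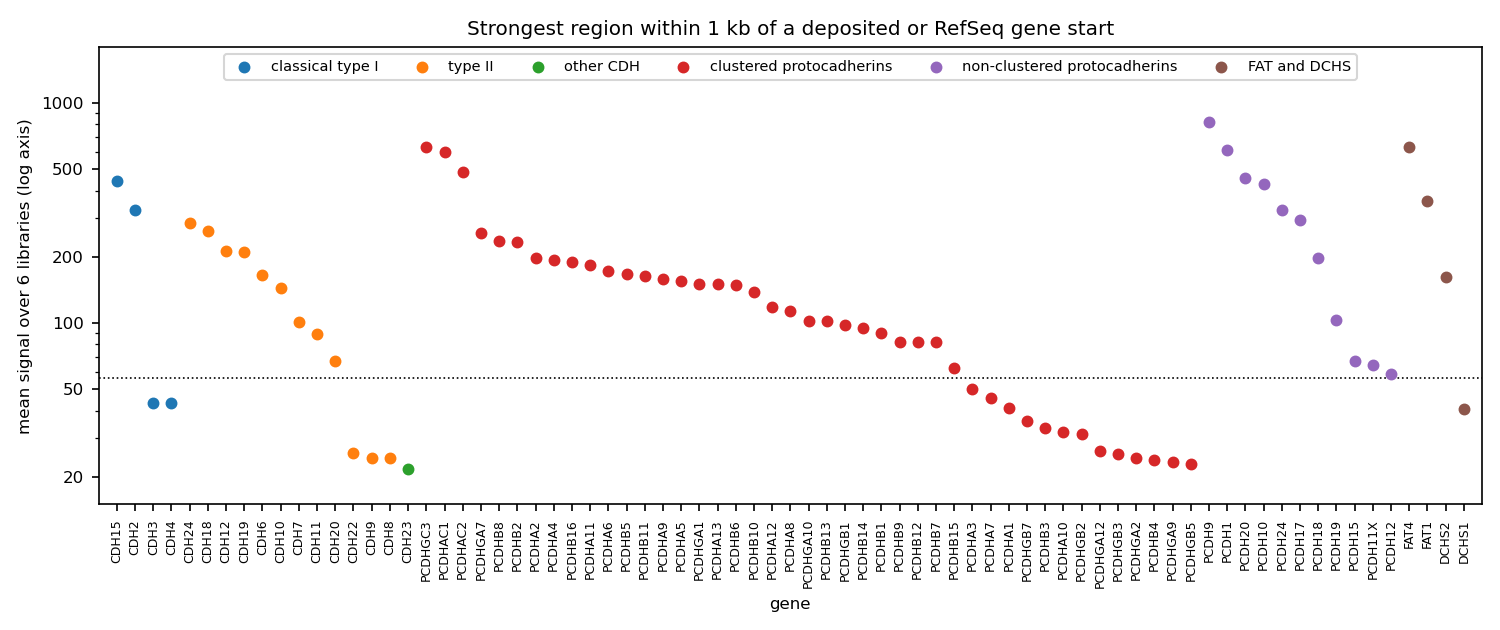
Mean signal over the 6 libraries (log axis) of the strongest region within 1 kb of a deposited or RefSeq start, 1 point per gene, ordered within subfamily; the dotted line is the lowest signal tested in 2 h against mock (56.2). PCDH9 stands highest at 823, and PCDHGC3, PCDHAC1 and PCDHAC2 stand above the other clustered genes.

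The N-cadherin start was open, and no region was listed at that of E-cadherin. CDH2 had a start region of mean signal 327 (chr18:28177017-28177518), which covers the upstream promoter printed above. The region nearest to the deposited CDH2 start lay 4.232 kb away, and no region in the tables used here overlapped the downstream promoter. For CDH1 no region lay within 1 kb of the start, and the nearest, at 2.786 kb, had a mean signal of 31.2. CDH1 nonetheless named the strongest of all member regions, with 1098, at chr16:68707382-68707883, 29.342 kb from its start. That region lies outside the CDH1 span and inside that of CDH3. Among type II genes the start of CDH24 had 285, that of CDH18 263, those of CDH12 and CDH19 (a cadherin of Schwann cells and the neural crest) 213 and 212, and that of CDH6 165. Type II starts at CDH22, CDH9 and CDH8 had 25.7, 24.4 and 24.4.

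The deposited starts were not always those of the RefSeq gene span. For 12 of the 87 genes with both, they lay more than 1 kb apart: 140545 bases for CDH2, 587527 for CDH18, 826650 for PCDH15 (a tip-link protein of the inner ear), 2841 for FAT1, 3772 for DCHS2 and 1443 for FAT4. The start regions of CDH2, FAT1 (360), FAT4 and DCHS2 (163) were found only from RefSeq starts, and this search was added after the tables had been seen. They belong to 13 regions that a 1 kb window on the deposited distance leaves out. CDH5, FAT3, CDH17 and CDH22 were given no RefSeq start, because no promoter sequence gave their strand and their deposited starts lie inside the RefSeq span, 8.72 to 128 kb from its nearer end. Only the deposited start was searched for them.

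In the clustered arrays, a region lay within 1 kb of the start of 15 of 15 alpha names, 16 of 16 beta names and 12 of 22 gamma names. Median start signal was 156 for alpha, 98.6 for beta and 33.6 for gamma. The C-type genes PCDHAC1, PCDHAC2 and PCDHGC3 stood above the rest of the arrays, where the highest was PCDHGA7 at 256. The other C-type genes, PCDHGC4 and PCDHGC5, had no region within 1 kb of their starts. In all 33 clustered promoters overlapped a region, and 1 per gene was kept, since PCDHGB1 and PCDHGB5 have 2 each. Among the 31 kept, those of the open 3 were also the least AT-rich apart from PCDHGB5 (40.0%). PCDHAC1 had 34.0% A+T, PCDHAC2 37.0% and PCDHGC3 41.0%, against a median of 59.3% for the other 28. This grouping was made after the values were seen and carries no test. Across the 31 clustered genes whose promoter overlapped a region, A+T content and mean signal had a Spearman rho of -0.12, as a description over genes that share libraries and sequence. The order of signals followed A+T content only weakly. At PCDHGB5, with 7 CGCT matches, the signal was 22.9.

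CGCT, searched on both strands, was in 51 of 52 clustered promoters (98.1%), against 70.0% of all 35116 promoters of the table. Its letters can abut or overlap their own reverse complement, as in the PCDHGC3 promoter. CAGGTG, the E-box bound by SNAI and ZEB repressors of CDH1 (searched with its reverse complement CACCTG, sharing no match with CGCT), was in 9.62% of clustered and 20.6% of all promoters. These shares were not adjusted for base content, and median A+T was 59.3% in clustered and 41.3% in all promoters. CDH1 itself had no promoter sequence in that set. A match is a description of letters, not of binding. The arrays hold near-identical paralogs, and how reads that fit several of them were counted is not given in the sources used here, so single clustered genes are uncertain.

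The first comparison asked where accessibility changed 2 h after HMGA1 was added. At 2 h, 11 of 703 tested member regions were higher than in mock and 0 were lower (DESeq2, adjusted p under 0.05), or 1.56%. Over all tested regions 1.28% were called, 0.856% higher and 0.421% lower, so the share of members called was near the background. At an unadjusted p under 0.05 there were 60 member regions (42 higher, 18 lower), or 8.53%, against 10.0% of all. Over all tested regions the split at that p was 3731 higher and 4889 lower. At that p the members thus leaned higher, unlike all regions, a difference that was not tested. Counting every tested region, 398 of 703 members and 53598 of all 86137 lay below 0. The median log2 fold change was -0.03 for the members and -0.06 for all tested regions. In bulk cells, a region open in more cells and one more open within each cell cannot be told apart. The sign of the member median turned (to 0.03) when the values were centred on the median of all tested regions.

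By subfamily, the calls at 2 h were 1 of 74 in type I cadherins, 3 of 230 in type II, 3 of 87 in other CDH genes, 0 of 50 in clustered protocadherins, 1 of 183 in non-clustered protocadherins and 3 of 79 in FAT and DCHS genes. Among clustered protocadherins 0 regions reached an unadjusted p under 0.05 either, and 44 of 50 lay below 0, with a median of -0.14. Most of these regions are at gene starts, and the median of all tested regions within 1 kb of a start was -0.11.

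**Figure D2:**
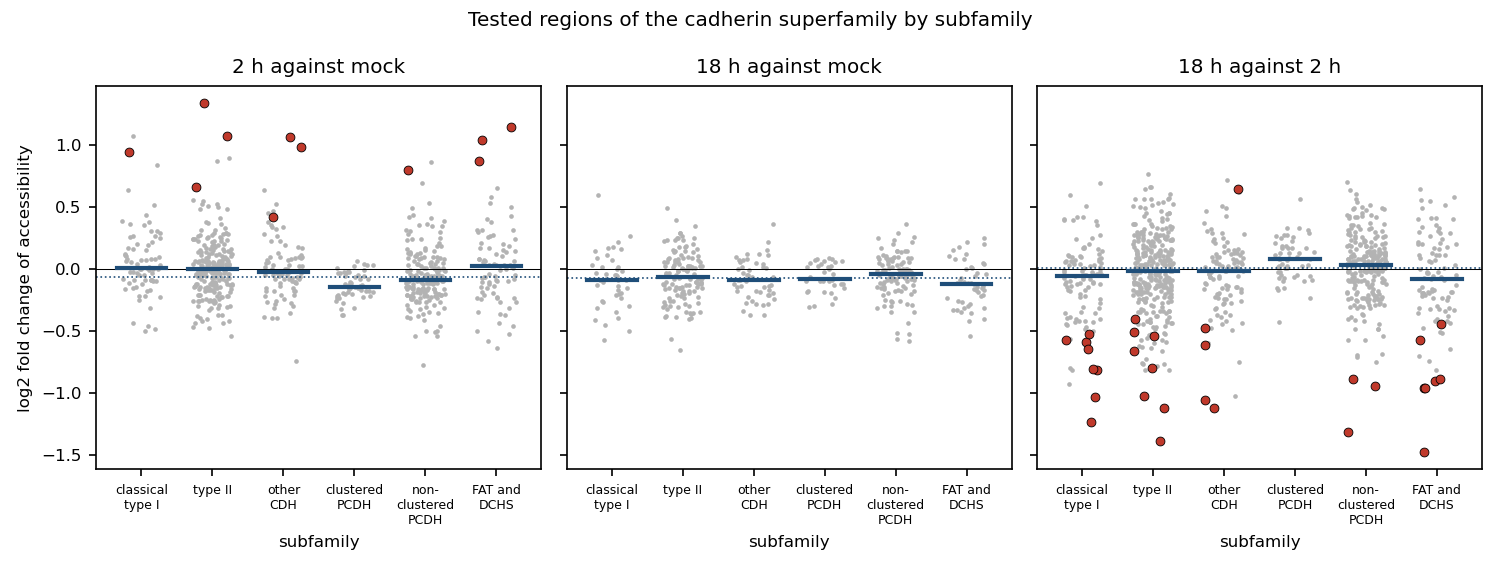
Log2 fold changes of the tested member regions (grey points, called ones red) by subfamily in the 3 comparisons, with the subfamily median as a bar and the median of all tested regions as a dotted line. The 11 calls at 2 h lie above 0, 30 of the 31 calls of 18 h against 2 h lie below it, and clustered protocadherins have none.

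Type II and FAT genes held the highest single values at 2 h. A region inside CDH18, a neural type II cadherin gene (chr5:19853852-19854353, 134 kb from its deposited start), had levels of 46.8 in mock, 118 at 2 h and 58.3 at 18 h. The rise at 2 h was 2.53-fold, or 1.34 ± 0.30 on the log2 scale (SE; DESeq2 adjusted p = 0.0021). The 18 h level stood much nearer to mock than to 2 h. The region was too low in signal to be tested in 18 h against mock.

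FAT3, a giant cadherin of developing neurons, had a region inside its span (chr11:92268955-92269456, 83.1 kb from its deposited start) with levels of 96.2 in mock, 213 at 2 h and 76.5 at 18 h. It rose 2.21-fold at 2 h, a log2 change of 1.14 ± 0.21 (adjusted p = 5.5e-05 by DESeq2). It then fell by 1.48 ± 0.22 between 2 h and 18 h (adjusted p = 1.0e-08), the lowest fold change among tested members. At 18 h its log2 difference from mock was -0.33 ± 0.23, which was not called.

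FAT4, the receptor of DCHS1, had a region inside its span (chr4:125389652-125390153, 73.3 kb from its start) that rose by 0.87 ± 0.24 at 2 h (DESeq2 adjusted p = 0.029), from a level of 77.3 to 141. Another, outside the gene at 575 kb, rose by 1.05 ± 0.27 (adjusted p = 0.014), from 59.1 to 122. Both were called lower again at 18 h than at 2 h, each by 0.96, and reached 72.7 and 62.7. Neither had enough signal to be tested in 18 h against mock. The start region of FAT4, of much higher signal, had -0.05 ± 0.10 at 2 h (95% interval -0.25 to 0.15).

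CDH4 held the smallest adjusted p at 2 h among members. Its region (chr20:61185920-61186421, 66.0 kb from the start and outside the gene) went from 193 in mock to 371 at 2 h and 181 at 18 h. The log2 changes were 0.94 ± 0.16 for 2 h against mock (adjusted p = 1.1e-05) and -1.03 ± 0.16 for 18 h against 2 h (adjusted p = 1.7e-07), both by DESeq2. CDH4 also named more regions than any other member, 177, of which 154 lay within its span. Only 19 of them had enough signal to be tested at 2 h.

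CDH26, a cadherin gene of epithelia, named 2 called regions on chromosome 20, at 245 and 423 kb. They rose at 2 h by 0.99 ± 0.23 and 1.07 ± 0.21, from levels of 80.6 to 160 and 99.3 to 208. Both fell between 2 h and 18 h, by 1.12 ± 0.23 and 1.05 ± 0.20, to 73.7 and 100.3. PCDH18, a delta-protocadherin gene, had a region at 223 kb (chr4:137754997-137755498) with levels of 140 in mock, 244 at 2 h and 98.2 at 18 h. That region rose by 0.80 ± 0.19 (DESeq2 adjusted p = 0.0072) and then fell by 1.31 ± 0.20 (adjusted p = 6.1e-08).

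CDH13, which encodes T-cadherin, a cadherin anchored by lipid and without a cytoplasmic tail, had the called region closest to a start. It lay 2.605 kb from it, inside the gene (chr16:82629569-82630070), and had the highest mean signal of the called members, 546. Its levels were 510 in mock, 682 at 2 h and 447 at 18 h. It rose by 0.42 ± 0.11 at 2 h (DESeq2 adjusted p = 0.019) and fell by 0.61 ± 0.11 from 2 h to 18 h (adjusted p = 1.2e-05). All 5 other tested members within 10 kb also lay below 0 in 18 h against 2 h, and 1 of 4 lay above 0 in 2 h against mock (median -0.03). None of those was called.

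The other calls at 2 h were named for CDH5 and CDH9. A region 265 kb from CDH5 (VE-cadherin, the adhesion molecule of endothelium) rose by 0.67 ± 0.15 (DESeq2 adjusted p = 0.0023) and fell by 0.80 ± 0.15 between 2 h and 18 h. The region named for CDH9, a neural type II gene, lay 1275 kb away and rose by 1.08 ± 0.30 (adjusted p = 0.032). It was the only one of the 11 not called in 18 h against 2 h, where it had -0.77 ± 0.29 (adjusted p = 0.15).

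The second comparison, 18 h against mock, called 0 of 408 tested members by DESeq2. Only regions with a mean signal of at least 101 were tested in it. Several regions called in the other comparisons lay under that and could not be called here. Among them were the CDH18 region, both FAT4 regions and the CDH2 region at 71.4 kb. Over all tested regions 0.121% were called, 0.00542% higher and 0.116% lower, so a count of 0 among the members was near the background. At an unadjusted p under 0.05 there were 29 member regions, 3 higher and 26 lower, or 7.11%, against 7.89% of all tested regions. Over all tested regions 315 were higher and 4052 lower, so the lean toward lower values was not particular to the members. The median was -0.07 for members and for all.

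The smallest p of each subfamily at 18 h against mock belonged to regions that were not called. CDH2 had a region at 247 kb (chr18:28284032-28284533) with 0.60 ± 0.20 (DESeq2 adjusted p = 0.24), and CDH5 one at 166 kb with -0.65 ± 0.20 (adjusted p = 0.21). CDH13 had -0.29 ± 0.10, FAT1 -0.28 ± 0.10, PCDH17 (a delta-protocadherin gene) -0.56 ± 0.22 within 0.664 kb of its start, and PCDHGC5 -0.23 ± 0.11. Their adjusted p lay between 0.285 and 0.580. The PCDHGC5 region lay 19.9 kb from that start and carries 22 gamma names, so it is not a value of PCDHGC5 alone. PCDH17 had the only tested member start region with an unadjusted p under 0.05 in any of the 3 comparisons.

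The third comparison asked what differed between 18 h and 2 h. It shares the 2 h libraries with the first comparison, so a region that stood high at 2 h enters both, and the values are set side by side only. Here 30 of 913 tested members were lower at 18 h and 1 was higher (DESeq2), or 3.40%. Over all tested regions 3.48% were called, 2.98% lower and 0.498% higher, so again the members' share was near the background. At an unadjusted p under 0.05 there were 107 members (11.7%), against 11.6% of all. The member median was close to 0, and that of all tested regions was 0.01.

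By subfamily, 8 of 106 type I regions were called lower, 8 of 311 type II, 4 of 108 of the other CDH genes, 0 of 54 clustered protocadherins, 3 of 238 non-clustered protocadherins and 7 of 96 FAT and DCHS regions. In either direction, 7.55% of type I, 7.29% of FAT and DCHS and 4.63% of other CDH regions were called, against 3.48% of all tested regions. The share was 2.57% for type II and 1.26% for non-clustered protocadherins. No subfamily was tested as a set. Of the 8 type I regions, 6 were named for CDH2. Of the 54 clustered protocadherin regions 0 reached an unadjusted p under 0.05, and their median was 0.08. The one with the smallest p, at PCDHGA1, had 0.33 ± 0.20 (adjusted p = 0.57).

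**Figure D3:**
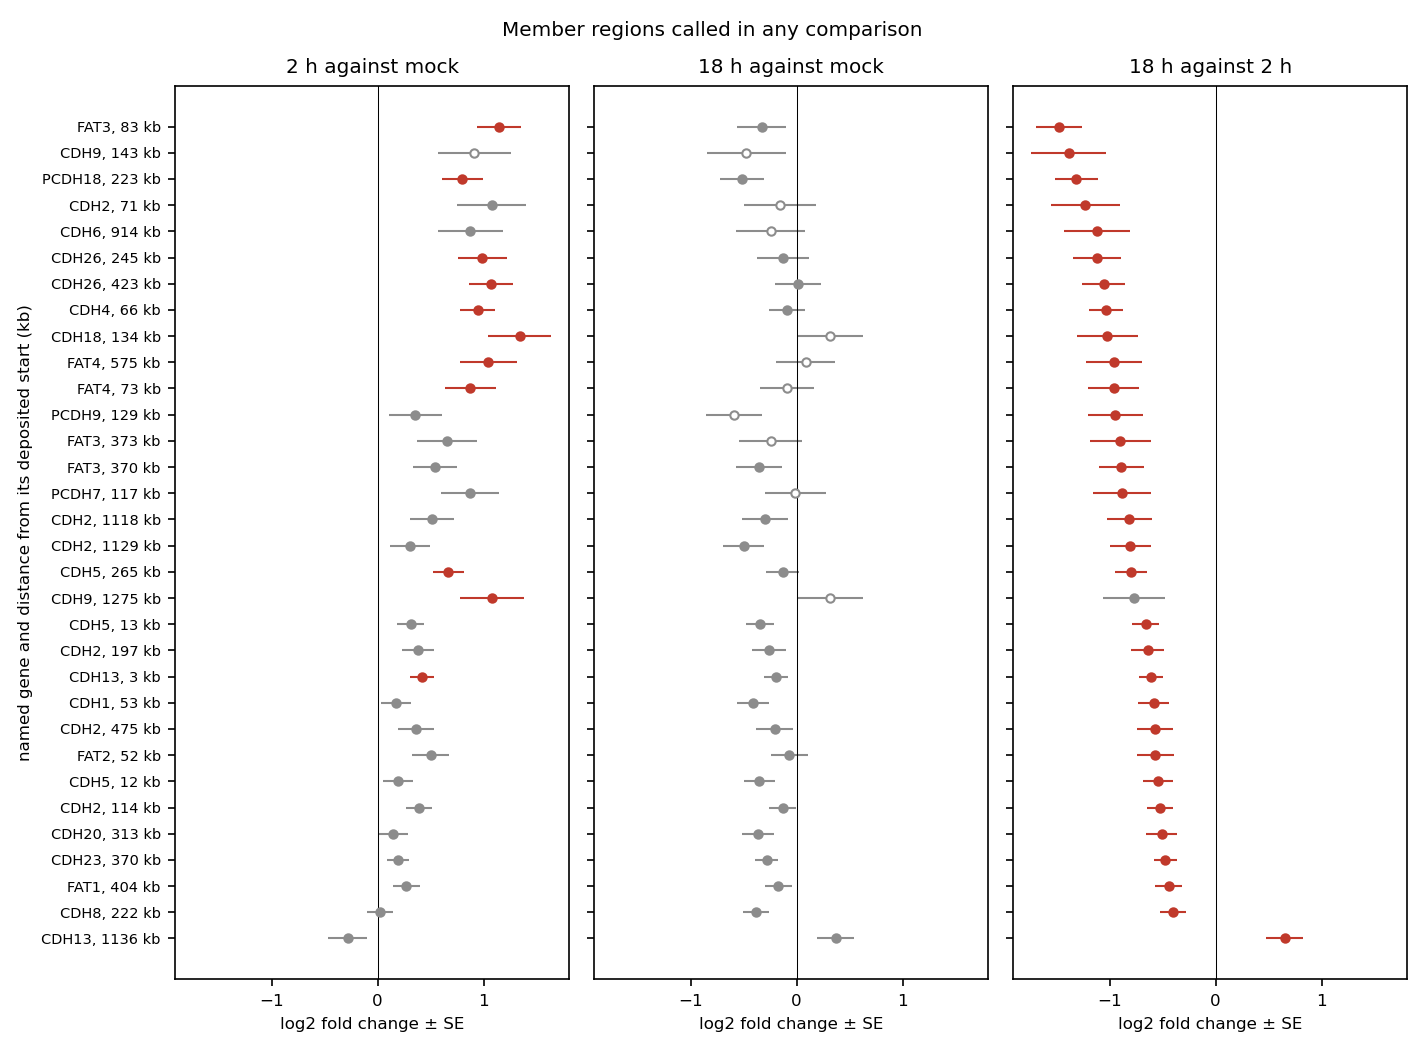
Log2 fold change with SE of the 32 member regions called in any comparison, ordered by 18 h against 2 h and labelled by gene and distance from the deposited start; red points are called, grey ones are not, open ones were not tested. The red points of the first panel lie above 0, no point of the middle panel is red, and 1 CDH13 region is the only called one above 0 in the last.

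CDH2, the N-cadherin gene, named the most called regions of any member, and all 6 were lower at 18 h than at 2 h. The strongest change was inside the gene, 71.4 kb from its deposited start (chr18:27964713-27965214), with levels of 46.5 in mock, 98.0 at 2 h and 41.8 at 18 h and a log2 change of -1.23 ± 0.32 (DESeq2 adjusted p = 0.0080). Regions at 114 and 197 kb fell by 0.52 ± 0.12 and 0.64 ± 0.15, and one at 475 kb fell by 0.57 ± 0.17. These 3 lie outside the gene.

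The remaining CDH2 regions, at 1118 and 1129 kb and 9.704 kb apart, fell by 0.81 ± 0.21 and 0.80 ± 0.19 (DESeq2 adjusted p = 0.0070 and 0.0023). None of the 6 was called in 2 h against mock, where their log2 changes ran from 0.30 to 1.07. Of 44 tested CDH2 regions 26 lay below 0 in 18 h against 2 h, and the median was -0.05. Over all tested regions 51971 of 108134 lay below 0. The CDH2 start region had 0.05 ± 0.14 in this comparison and -0.15 ± 0.14 in 2 h against mock (95% interval -0.42 to 0.13). Measured from the RefSeq start at that open promoter, the 6 called regions lay between 212 and 988 kb away.

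FAT3 named 3 called regions. Besides the one in the gene, a pair 2.813 kb apart at 370 and 373 kb fell by 0.89 ± 0.21 and 0.90 ± 0.29 (DESeq2 adjusted p = 0.0020 and 0.0496), the latter just inside the threshold. The levels of the pair were 129, 187 and 101 and 70.2, 111 and 59.3 in mock, at 2 h and at 18 h. Of 29 tested FAT3 regions, 18 lay below 0 in 18 h against 2 h, beside 51971 of 108134 over all tested regions.

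CDH5 also named 3. A pair of neighbouring regions 0.132 kb apart inside the gene, 12.7 and 12.1 kb from its deposited start (chr16:66382251-66382752 and chr16:66382884-66383385), fell by 0.66 ± 0.13 and 0.54 ± 0.14 (DESeq2 adjusted p = 7.0e-05 and 0.0091). Such neighbours may be parts of 1 open site and are not independent. Their levels were 388, 482 and 305, and 355, 406 and 279, in mock, at 2 h and at 18 h. No region lay within 1 kb of the deposited CDH5 start, which lies inside the RefSeq span.

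**Figure D4:**
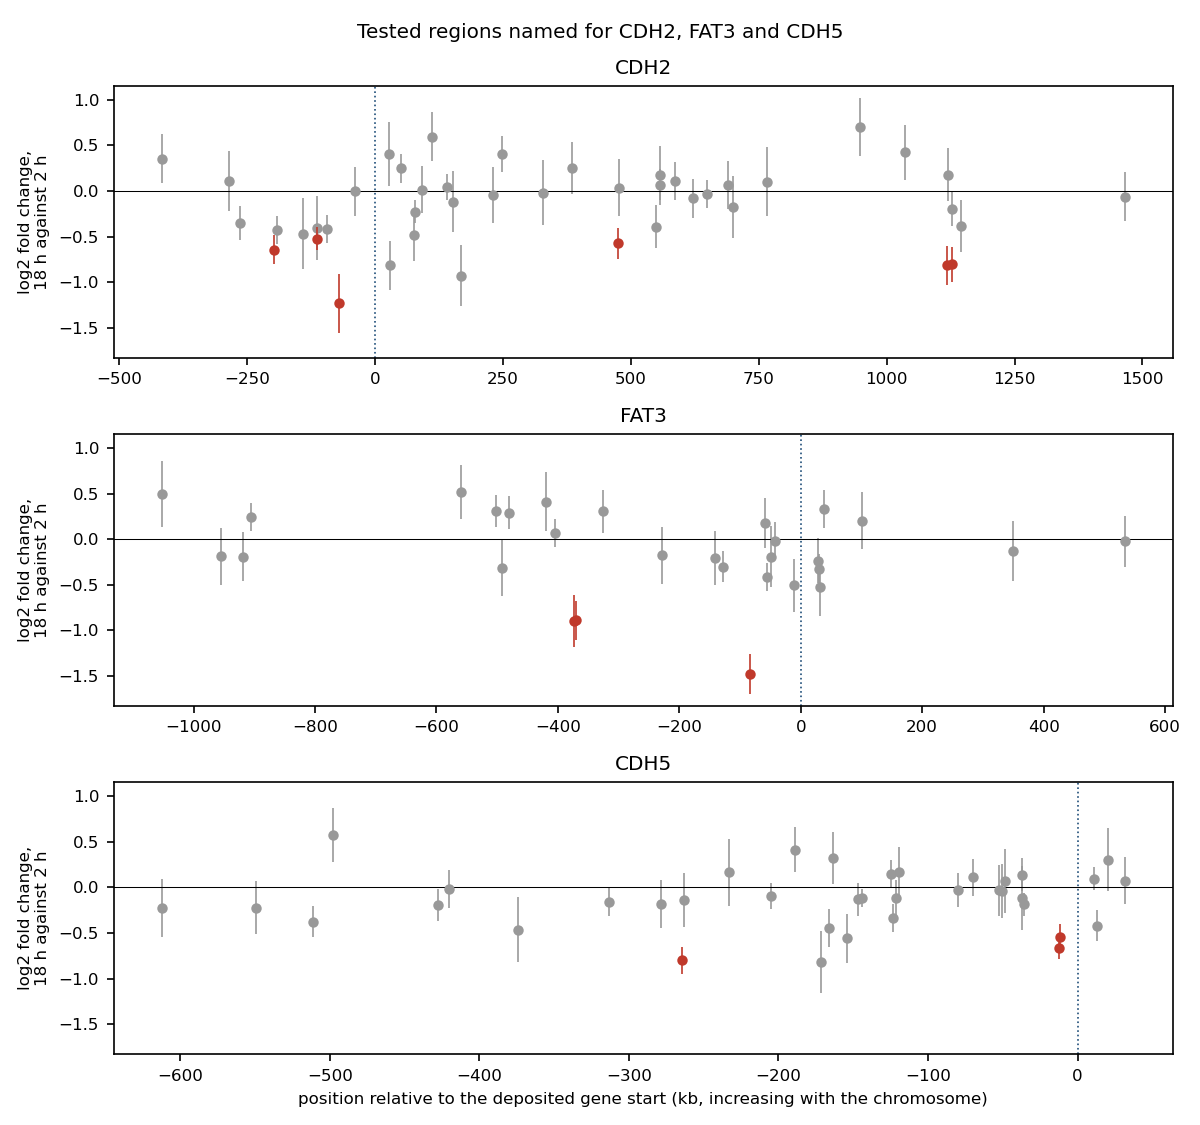
Log2 fold change of 18 h against 2 h with SE for every tested region named for CDH2, FAT3 and CDH5, by position relative to the deposited start in kb; red points are called. The red points lie below 0 among grey ones on both sides of it.

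E-cadherin had 1 called region among 11 tested. It lies inside CDH1 at 52.9 kb (chr16:68790107-68790608), with levels of 293 in mock, 331 at 2 h and 221 at 18 h. It fell by 0.58 ± 0.15 between 2 h and 18 h (DESeq2 adjusted p = 0.0048), and its 18 h value differed from mock by -0.41 ± 0.15, which was not called. The strongest CDH1 region, with a mean signal of 1098, had 0.06 ± 0.08 at 2 h.

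Among the remaining type II genes, a region inside CDH9 (143 kb) had the lowest value, -1.39 ± 0.35, at a mean signal of 46.7, the lowest of the called members. CDH6, a cadherin gene of kidney, had -1.12 ± 0.31 at 914 kb. CDH20 and CDH8, neural type II genes, had -0.51 ± 0.15 at 313 kb and -0.40 ± 0.12 at 222 kb. All 4 were called by DESeq2, with adjusted p between 0.0055 and 0.036. The CDH8 region had levels of 437, 443 and 336 in mock, at 2 h and at 18 h, so mock and 2 h lay together.

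CDH23, whose protein forms tip links of hair cells with that of PCDH15, had a region inside its span at 370 kb that fell by 0.48 ± 0.11 (DESeq2 adjusted p = 0.0012). It is also named for VSIR, an immune checkpoint gene. A second CDH13 region, at 1136 kb inside the gene (chr16:83762561-83763062), was the only member called higher at 18 h than at 2 h. Its levels were 180 in mock, 148 at 2 h and 232 at 18 h, a log2 change of 0.65 ± 0.18 (adjusted p = 0.012).

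The non-clustered protocadherin genes PCDH9 and PCDH7 had 1 further called region each, both inside the gene, at 129 and 117 kb. They fell by 0.95 ± 0.26 and 0.88 ± 0.27 (DESeq2 adjusted p = 0.013 and 0.040). After CDH4, these 2 genes named the most regions, 107 for PCDH7 and 105 for PCDH9, with 55 and 54 tested. FAT1, a regulator of actin and growth, and FAT2 had -0.44 ± 0.13 at 404 kb and -0.57 ± 0.17 at 51.6 kb (adjusted p = 0.020 and 0.034).

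Over all 3 comparisons, 32 member regions named for 19 genes were called, and 10 of them both in 2 h against mock and in 18 h against 2 h. Of the 32, 13 lay inside the span of the named gene, 23 were over 100 kb from its deposited start and 4 over 1000 kb (up to 1275 kb). Exons, introns and UTRs were not analysed. Of tested members at 2 h, 63.0% lay over 100 kb from a start, against 27.1% of all tested regions. By subfamily the share was 54.1% to 75.7%, except for 0 of the 50 clustered protocadherin regions. Among tested regions over 100 kb from a start, 1.58% of members and 1.86% of all were called at 2 h. In 18 h against 2 h these shares were 3.73% and 4.65%. Of the 31 regions called in 18 h against 2 h, 19 had another tested member region within 10 kb. In 2 h against mock that held for 3 of 11. The same count over all tested members was not made, so these counts do not show whether called regions lie closer together than others.

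No member start region was called. Of the 101, those tested numbered 68, 50 and 74 in 2 h against mock, 18 h against mock and 18 h against 2 h, and the smallest DESeq2 adjusted p were 0.525, 0.385 and 0.571. Their medians were -0.11, -0.09 and 0.02. Of all tested regions within 1 kb of a deposited start, 0.167% were called at 2 h. The share was 0.0178% in 18 h against mock and 0.400% in 18 h against 2 h. A count of 0 is near each of these backgrounds too. Where the signal was high the intervals were narrow: the PCDH9 start had 0.01 ± 0.09 at 2 h (95% interval -0.16 to 0.18) and -0.02 ± 0.09 at 18 h against mock (-0.19 to 0.15). At the CDH3 and CDH4 starts, which were too low to be tested against mock, the 95% intervals at 2 h were wide, -0.99 to 0.46 and -0.79 to 0.59. Tested in 18 h against 2 h, those starts had 0.42 ± 0.36 and -0.42 ± 0.36 and were not called.

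Other genes of the pathway were counted the same way, with no test of the lists. Of 105 tested regions of catenins and plakophilins, which link cadherin tails to the cytoskeleton, 2 were higher at 2 h (1.90%, against 1.28% of all tested regions called), for CTNND2 (1.40 ± 0.22, 835 kb) and CTNNA2 (0.61 ± 0.17), and 3 of 139 were lower at 18 h than at 2 h (2.16%, against 3.48%), these and a PKP1 region. PKP1 was also lower at 18 h than in mock (-0.39 ± 0.09, DESeq2 adjusted p = 0.030). That was 1 of 65 regions of its list, where 0.121% of all tested regions were called. Of 25 regions of cadherin-related genes, 1 was lower at 18 h than in mock (4.0%, against the same 0.121%). It was named for CLSTN2 (-0.48 ± 0.12, DESeq2 adjusted p = 0.046). Of 57 regions, 2 were lower at 18 h than at 2 h (3.51%, against 3.48%), for CLSTN2 and CELSR2. Of 38 regions of shedding enzymes and Fat-Dachsous partners, 5 were lower at 18 h than at 2 h, or 13.2%, a share above the 3.48% of all tested regions. They came from 2 genes, 3 for FJX1, the human relative of the fly Golgi kinase four-jointed, and 2 for VANGL1, a planar polarity gene. In the same comparison 1 of 89 regions of CDH1 repressors was lower (1.12%), for ZEB2 (-0.55 ± 0.15). Among desmosomal cadherins it was 1 of 30 (3.33%), for DSC1. Both shares were under the 3.48% of all tested regions.

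The cells' labels were set against start regions of marker genes. A start region was present for 4 of 8 melanocyte and melanoma genes (SOX10 63.8, PMEL 298, S100B 353, MITF 694), and the tables used here list none for MLANA, TYR, TYRP1 and DCT. It was present for 4 of 5 genes of undifferentiated melanoma (224 to 665, AXL highest), 3 of 6 of keratinocytes (26.9 to 69.4), 4 of 5 of fibroblasts (57.4 to 448), 1 of 4 of endothelium (KDR, 197) and 1 of 4 of immune cells (LYZ, 210). The endothelial list includes CDH5, whose deposited start lies inside its RefSeq span. No other start was searched for CDH5, so a closed start is not shown.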

How the data were processed

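ATAC-seq libraries of A375 cells (3 groups of 2) were compared by the authors. Per the submitters' processing notes, reads were demultiplexed with bcl2fastq 2.17, the build was hg38 and DESeq2 was used. The sources used here do not give the aligner, the peak caller or any Tn5 shift. The mean signal per region (counts divided by size factors), the log2 fold change, the Wald score (fold change over its SE) and the p-value with its adjusted p are the authors' deposited values.

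Rows of 1 region with several gene names were counted once. Group levels were computed as 3 times the mean signal divided by the sum of the groups' fold changes over mock, with the mean taken as equal over groups, which is an approximation. Intervals (95%) are the fold change with its normal error. The adjusted p was recomputed by the Benjamini-Hochberg method and matched the deposited one over 86137, 55341 and 108134 tested regions, those with a mean signal of at least 56.2, 101 and 41.7. The centring, the Wald p and the Benjamini-Hochberg adjustment were tested on simulated fold changes, and the counting itself was not. Planned count tests (edgeR) needed values per library and were not run.

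Named regions were, for each comparison and subfamily, up to 3 called regions with the highest and 3 with the lowest fold change (1 per gene), or else the smallest p; genes with 3 or more called regions; the start regions of 21 listed genes; and the 3 genes with most regions. Other called regions were named after their values were seen. All 96 names matched RefSeq (GRCh38.p14), 1 through an older name, and 74 have a promoter sequence. The members, lists and alternatives (thresholds, filters, centring, distance) were chosen with earlier results of these data known. The gene spans come from RefSeq, and whether the files count positions from 0 or 1 is not stated. Distances are used without sign. Python 3.11.15, pandas 2.3.3 and scipy 1.17.1 were used.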

Additional observations from a re-analysis of the deposited data

Results flagged for a closer look

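The regions listed here are those of the naming rule that were called in 18 h against 2 h (DESeq2, authors' deposited values). That comparison is the difference between the effects at 18 h and at 2 h against mock. Being called was the condition for entry, so the list repeats the third comparison and adds no separate support. The log2 differences (18 h minus 2 h) among classical cadherins were -1.23 for CDH2 (71.4 kb), -1.03 for CDH4 and -0.58 for CDH1. Among type II genes they were -1.39 for CDH9, -1.12 for CDH6 and -1.02 for CDH18. Among other CDH genes they were 0.65 for the CDH13 region at 1136 kb, -0.61 for that at 2.605 kb, -1.12 for CDH26 and -0.48 for CDH23. Among protocadherins they were -1.31 for PCDH18, -0.95 for PCDH9 and -0.88 for PCDH7, and among FAT genes -1.48 for FAT3, -0.96 for FAT4 and -0.57 for FAT2. Of these 16 regions all but that of CDH13 at 1136 kb were lower at 18 h. The 2 h libraries enter every one of these differences, and the part that those 2 libraries play was not tested.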

How the results depend on the processing

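The count of members called at 2 h against mock, 11, became 7 at an adjusted p under 0.01, 4 with the filter at the median mean signal and 4 within 100 kb of a start. The count of 31 in 18 h against 2 h became 19 at 0.01 and 9 within 100 kb. The other alternatives gave 9 to 15 and 22 to 38, and 18 h against mock kept 0 calls in each alternative run. Centring within 20 bins of mean signal turned the sign of 5 start regions that were not called: FAT4 at 2 h (0.050), PCDH9 (0.036), PCDH10 (0.064) and FAT1 (0.048) at 18 h against mock, and PCDH1 at 18 h against 2 h (-0.014). The cause was not tested. Without the filter on low signal, which adds regions to the adjustment, the counts were 9 and 26, and of the regions set by the naming rule CDH9 at 1275 kb (adjusted p = 0.078), PCDH7 (0.080) and FAT2 (0.068) were no longer called. Centring on the median tested region moved the share of higher calls over all regions from 67.0% to 85.6% at 2 h and from 4.48% to 27.3% at 18 h against mock; for members the calls were 15 higher and 0 lower, and none. No paired analysis was possible because the tables hold no values per library. For the same reason leaving out each library, edgeR with TMM, other pseudocounts and a replicate term were not run. With 2 libraries a group, no statement can be checked against 1 library alone.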
